A study of Mus musculus with 18 samples.

Results

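The Zfp36 family was followed here through its 3 members Zfp36, Zfp36l1 and Zfp36l2, taken by gene symbol from 19454 symbols on the arrays. Each member had 1 array row that carried its symbol and no other, and no row with several symbols held a member. Zfp36 (gene ID 22695) encodes tristetraprolin, abbreviated TTP. Zfp36l1 (gene ID 12192) and Zfp36l2 (gene ID 12193) encode its paralogues.

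Proteins of this family carry a pair of CCCH zinc fingers that bind AU-rich elements in the 3' untranslated regions of mRNAs. TTP then recruits the CCR4-NOT deadenylase complex, which shortens the poly(A) tail and starts decay. Zfp36 is an immediate-early gene in macrophages stimulated with lipopolysaccharide (LPS), a bacterial cell wall component, and its own mRNA carries AU-rich elements. The kinase p38, through its substrate kinase MK2, leads to phosphorylation of TTP, which restrains the protein. The paralogues bind the same kind of element.

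The series holds 18 arrays (Affymetrix Mouse Gene ST 1.0) in 6 groups of 3. The cells were macrophages grown with M-CSF from the marrow of C57Bl/6 mice, either wild type (WT) or TTP-/- (KO). Every culture received LPS for 3 h. The medium was then exchanged for medium with actinomycin D, which blocks transcription, and SB203580, which inhibits p38, and RNA was taken after 0, 45 or 90 min. LPS, the transcription block and the p38 inhibitor were thus common to WT and KO, and time under the block equalled time under the inhibitor. Whether the replicates were separate cultures or mice is not stated in the labels; the p-values then reflect only how far these samples spread, and that spread may be technical. In these bulk samples, fewer cells of a type and less RNA per cell cannot be told apart.

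All 9 macrophage markers examined were above the signal limit in every group; this limit, a log2 intensity of 3.03, is the median mean signal of array rows. Averaged over the times, limma called 3 of these 9 higher in KO, against 0.877% of all genes tested. At an unadjusted p under 0.05 there were 6 of 9, against 11.6%. The estimate was above 0 for 6 of the 9, with a median KO minus WT of 0.22 against 0.01 over all genes. T cell, B cell, erythroid and mast cell markers were below the limit in all groups. Of the dendritic cell markers 2 or 3 of 5 were above it, of the stromal markers 3 of 5, and of the neutrophil markers 1 of 8 in KO at 0 and 90 min and 0 of 8 elsewhere. The summed intensity of the measured megakaryocyte markers, 3 of 4, ranged from 232 to 509 over the WT arrays and from 239 to 1171 over the KO arrays. This sum is mostly that of Pf4, with log2 group means of 8.23 to 8.82. Those of Itga2b were 3.00 to 3.27, near the limit, and those of Gp9 were 2.07 to 2.42, below it. The part of any of these in the results was not tested. The titles number the arrays in 2 runs, which the labels do not explain. Replicate 3 of each group (series A) stood apart from replicates 1 and 2 (series B), at 11.97 to 30.9 against -23.1 to -5.76 on the first principal component. The KO 90 min replicate 2 array stood apart for genes that fell in WT. Over 124 such genes other than Zfp36, it was above the mean of the other 2 KO 90 min arrays for 120, with a median of 0.58 on the log2 scale. The value without a single array is given for some, not all, of the differences below that leaving it out moved by over 1.5 times.

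Zfp36 mRNA was the family's strongly time-dependent transcript. Log2 intensities in WT were 7.95, 7.86 and 7.12 in replicates 1, 2 and 3 at 0 min, 4.86, 4.93 and 4.47 at 45 min, and 4.11, 4.10 and 4.15 at 90 min. The WT arrays at 0 min all lay above those at 45 min, which all lay above those at 90 min. The WT groups at 0 and 45 min did not overlap for 9.94% of all genes tested. This share was not computed for WT at 45 and 90 min. In KO the values were 6.25, 6.75 and 6.81 at 0 min, 5.58, 5.11 and 5.36 at 45 min, and 4.58, 5.97 and 4.42 at 90 min. The KO groups at 0 and 90 min did not overlap (11.9% of all genes tested, and 10.1% for WT at the same times), but replicate 2 at 90 min lay above every KO array at 45 min.

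The array row still gave a Zfp36 signal in the KO arrays. Neither the stretch of the gene that the row covers nor the part disrupted in the TTP-/- allele is known here. The row therefore does not check the genotype labels, and in KO it shows the level of whatever Zfp36 transcript remains, not of TTP.

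**Figure D1:**
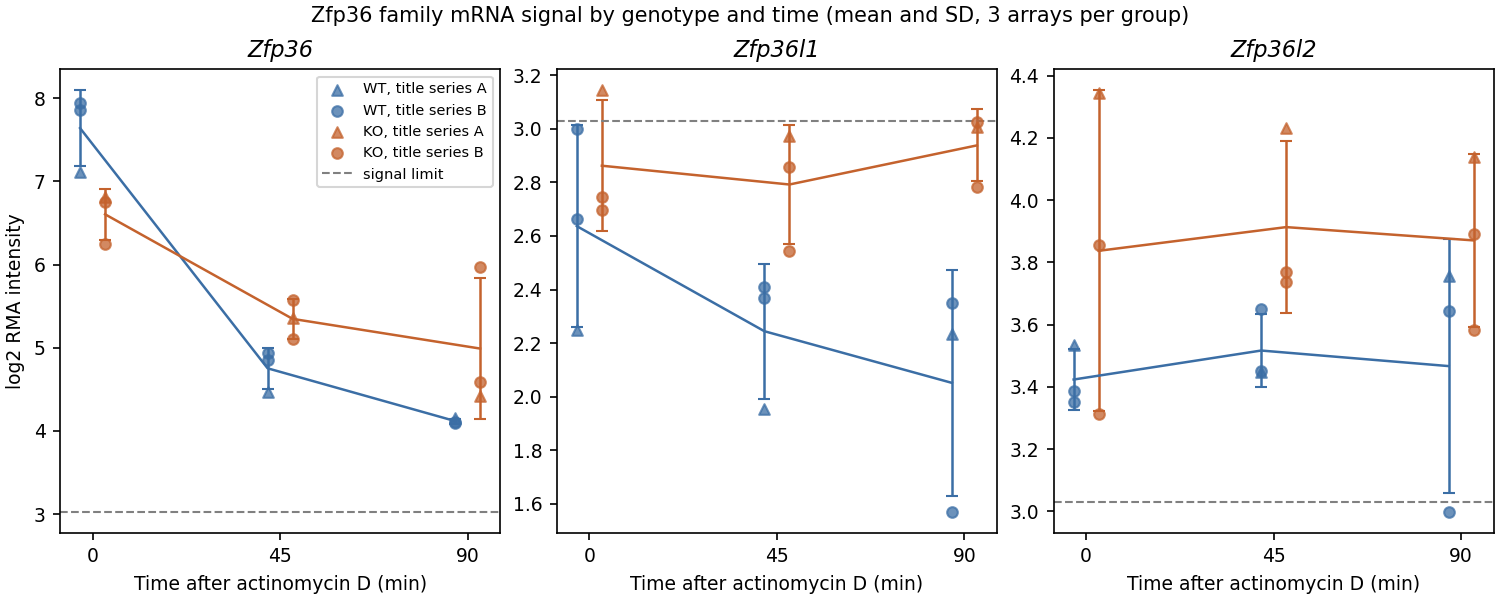
Log2 intensity of Zfp36, Zfp36l1 and Zfp36l2 on each array (points) against minutes of transcription block, for WT and KO, with group means and SD (n = 3 arrays per group). The vertical ranges differ between panels. Zfp36 falls from 7.64 to 4.12 in WT and from 6.61 to 4.99 in KO, while the means of Zfp36l2 stay between 3.42 and 3.52 in WT and between 3.84 and 3.91 in KO.

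The first question was how fast the members' mRNAs were lost in WT cells. Over 90 min Zfp36 log2 intensity fell by 3.52 ± 0.32 (SE), from 7.64 ± 0.45 (SD, n = 3) to 4.12 ± 0.03 (SD, n = 3), which left 8.70% of its signal. The limma adjusted p was 1.15e-05, and only 3 of the 10258 tested genes had a lower estimate. Most of this change lay in the first interval. By 45 min Zfp36 had fallen by 2.89 ± 0.32, with a limma adjusted p of 0.000204 and 13.5% of the signal left, the second lowest estimate among all genes tested. From 45 to 90 min the estimate was -0.63 (95% confidence interval -1.30 to 0.04), which did not pass (limma adjusted p = 1.00).

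Expressed as an apparent half-life, the signal halved in 15.6 min between 0 and 45 min and in 70.9 min between 45 and 90 min. The second of these half-lives has no upper bound, because the interval of its change (-1.30 to 0.04) includes 0. Whether the rate differed between the intervals was not tested. A straight line over all 3 times gave 25.6 min (95% confidence interval 20.3 to 34.5), from a slope called by limma (adjusted p = 0.000174), as 1.3% of all genes were in this direction. Half-lives here are relative ones, because RMA evens out signal between arrays before it summarises them, so a general loss of RNA would not show in full. The last WT values lay 1.09 above the signal limit on the log2 scale.

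In KO cells Zfp36 log2 intensity fell by 1.61 ± 0.32 over the same time, from 6.61 ± 0.31 (SD, n = 3) to 4.99 ± 0.85 (SD, n = 3), leaving 32.7% (limma adjusted p = 0.0475). At 45 min the estimate was -1.26 ± 0.32 and did not pass (limma adjusted p = 0.305). The KO half-life over all 3 times was 55.7 min (95% confidence interval 35.6 to 128), from a slope that did not pass (limma adjusted p = 0.228, with 0.107% of all genes called).

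The KO call at 90 min lay close to the threshold. With each of the 18 arrays left out in turn, it passed in 3 of 18 fits. Without KO 90 min replicate 2, Zfp36 fell by 2.10 (limma adjusted p = 0.000383), and its KO change at 45 min passed as well (limma adjusted p = 0.0228). The call at 90 min did not pass within series B alone, at -1.23 (limma adjusted p = 0.216), or when only the compared groups were fitted, at -1.61 (limma adjusted p = 0.340). It passed in 5 of 11 alternatives other than leaving out arrays, among them fits with the replicate number or the title series as a block.

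Of the 2 tested members, 1 was called lower in WT at 90 min, against 1.22% of all genes tested called lower and 1.23% called in either direction. In KO at 90 min 1 of 2 was called, against 0.224%, and in WT at 45 min 1 of 2, against 0.127%. In KO at 45 min limma called 0 of 2 members, against 0.0487% of all genes, with 1 of 2 at an unadjusted p under 0.05, against 5.26%. Each of these calls was Zfp36, and that low p at 45 min in KO was also Zfp36.

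**Figure D2:**
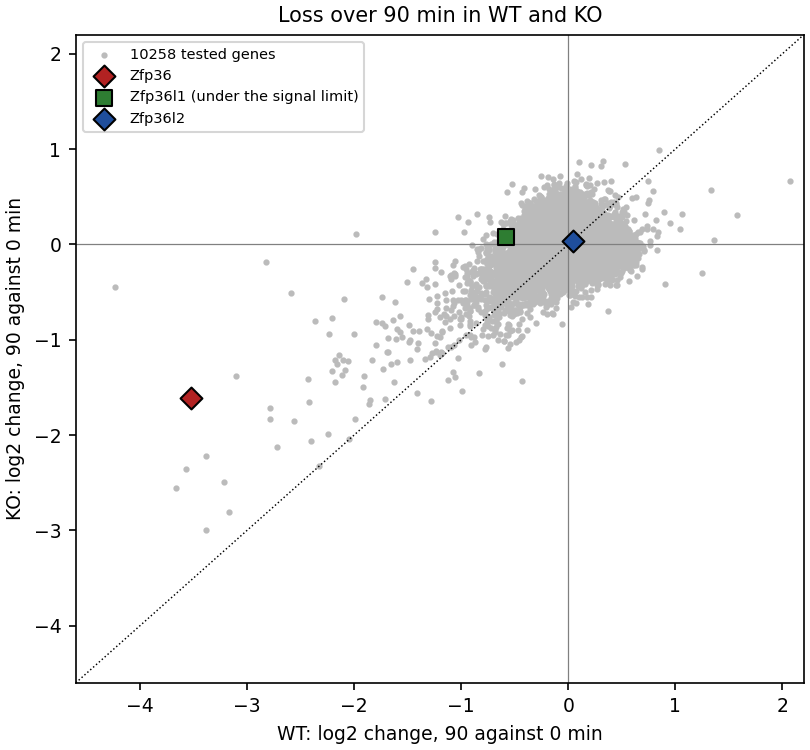
Log2 change over 90 min of transcription block in WT (horizontal axis) and KO (vertical axis) for all genes tested, with the family members marked. Zfp36 lies at -3.52 in WT and -1.61 in KO, and Zfp36l2 lies at 0.04 and 0.03. Points above the diagonal lost less signal in KO than in WT.

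The study's design compares decay between genotypes. The difference in the loss of Zfp36 over 90 min, KO minus WT, was 1.91 ± 0.45 on the log2 scale (95% confidence interval 0.96 to 2.86). Only 4 of 10258 genes had a higher estimate. It did not pass after adjustment over all genes (limma adjusted p = 0.758, unadjusted p = 0.000541). At 45 min the difference was 1.63 ± 0.45 (95% confidence interval 0.68 to 2.58, limma adjusted p = 1.00), the third highest estimate. Limma called 0 of 2 tested members in either decay difference, with 1 at an unadjusted p under 0.05 in each. Over all genes the called shares were 0.0195% at 90 min and 0.00975% at 45 min, and 2.67% and 1.82% had an unadjusted p under 0.05. Without KO 90 min replicate 2 the difference at 90 min was 1.42.

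The difference in decay combined different starting and end levels. At 0 min, KO minus WT was -1.70, -1.11 and -0.31 in replicates 1, 2 and 3. At 45 min it was 0.72, 0.17 and 0.89, and at 90 min 0.47, 1.87 and 0.27. All 3 differences were thus below 0 at the start and above 0 at both later times, and the WT and KO groups did not overlap at any of the 3 times. Among all genes tested, 10.3%, 12.8% and 9.72% had non-overlapping genotypes at 0, 45 and 90 min.

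The fitted difference at 0 min was -1.04 (95% confidence interval -1.71 to -0.37), that is 48.8% of the WT signal. It did not pass (limma adjusted p = 0.564), although only 15 genes had a lower estimate. Series B alone gave -1.40 (limma adjusted p = 0.0151), and leaving out WT 0 min replicate 3, the lowest WT array at that time, gave -1.30 (limma adjusted p = 0.0266). The number of genes called in this comparison moved as well, from 0 in the main fit to between 0 and 815 without single arrays. Over the other alternatives it ran from 0 to 926, so a pass there need not be particular to Zfp36. At 45 min the difference was 0.59 (95% confidence interval -0.08 to 1.26) and at 90 min it was 0.87 (0.20 to 1.54). Neither passed, with limma adjusted p of 1.00 and 0.673. Without KO 90 min replicate 2 the 90 min difference was 0.38 (limma adjusted p = 0.999). Averaged over the 3 times the difference was 0.14 ± 0.18, and the opposite signs cancelled in this mean. Without KO 90 min replicate 2 this mean was -0.02.

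**Figure D3:**
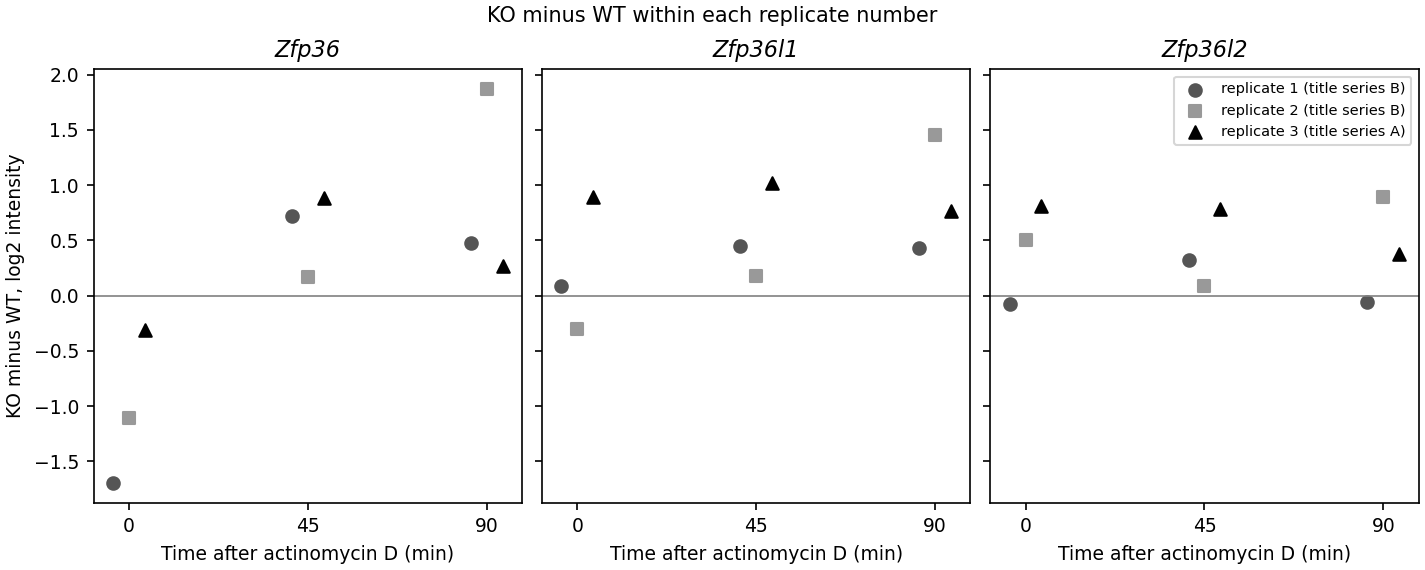
KO minus WT in log2 intensity for each replicate number at 0, 45 and 90 min, one panel per member. Zfp36 runs from -1.70 to -0.31 at 0 min and from 0.17 to 1.87 at the later times, whereas Zfp36l1 is above 0 in 8 of 9 pairs and Zfp36l2 in 7 of 9.

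The paralogues address whether their mRNA levels differed in cells without TTP. Zfp36l1, which acts in vascular and lymphocyte development, gave a low signal. In WT its log2 intensities were 2.66, 3.00 and 2.25 at 0 min, 2.41, 2.37 and 1.95 at 45 min, and 2.35, 1.57 and 2.24 at 90 min. In KO they were 2.75, 2.70 and 3.14 at 0 min, 2.86, 2.55 and 2.97 at 45 min, and 2.78, 3.02 and 3.01 at 90 min. The genotypes overlapped at 0 min, and every KO array lay above every WT array at 45 and at 90 min. Among all genes tested, 12.8% and 9.72% had non-overlapping genotypes at these times, in either direction. Zfp36l1 is not among those genes, and no such share was computed for genes under the signal limit.

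Zfp36l1 was at or above the signal limit on 0 of 9 WT arrays and 1 of 9 KO arrays. Its highest group mean was 2.94 ± 0.13 (SD, n = 3), so it was not tested with the other genes. Values this low are limited by background, and a change there is understated. Its estimates below come from a fit of all 19454 genes without the filter.

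In that fit the Zfp36l1 difference, KO minus WT, was 0.23 at 0 min, 0.55 at 45 min and 0.89 at 90 min. The limma adjusted p-values over all 19454 genes were 0.951, 1.00 and 0.258. The 0 min value was 0.03 without WT replicate 3, 0.08 without KO replicate 3 and 0.41 without WT replicate 2. Averaged over the 3 times the difference was 0.55 ± 0.13 (SE), with a limma adjusted p of 0.0610 that missed the threshold, and it was 0.23 with an offset of 8 added to each intensity. At this signal the size of the difference is not well measured, and no fold is given. Over 9 arrays of each genotype the WT mean was 2.31 ± 0.40 (SD, n = 9) and the KO mean 2.86 ± 0.19 (SD, n = 9).

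Over time, Zfp36l1 had an estimate of -0.58 ± 0.22 in WT at 90 min (95% confidence interval -1.05 to -0.12, limma adjusted p = 0.414) and of 0.08 in KO. Leaving out single arrays gave KO estimates of -0.01 to 0.22. The decay difference at 90 min was 0.66 (95% confidence interval 0.01 to 1.31, limma adjusted p = 1.00). The lowest Zfp36l1 value of all, 1.57, was on WT 90 min replicate 2. Without this array the WT change was -0.34, the decay difference was 0.42, the difference between genotypes at 90 min was 0.65 and the averaged difference was 0.47.

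Zfp36l2, a paralogue with roles in blood stem cells and in lymphocytes, gave a signal above the limit on 8 of 9 WT arrays and 9 of 9 KO arrays. In WT its log2 intensities were 3.39, 3.35 and 3.53 at 0 min, 3.45, 3.65 and 3.45 at 45 min, and 3.64, 3.00 and 3.76 at 90 min. In KO they were 3.31, 3.86 and 4.34 at 0 min, 3.77, 3.74 and 4.23 at 45 min, and 3.58, 3.89 and 4.14 at 90 min. Replicate 3 was the highest KO array at each time. The genotypes overlapped at 0 and 90 min and not at 45 min, where the lowest KO array was at 3.74 and the highest WT array at 3.65. At 45 min 12.8% of all genes tested had non-overlapping genotypes.

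No loss of Zfp36l2 over time was detected in either genotype. The change over 90 min was 0.04 (95% confidence interval -0.47 to 0.56) in WT and 0.03 (-0.48 to 0.55) in KO, with limma adjusted p of 0.991 and 1.00. The lower bounds still allow a ratio to the starting signal of 0.721 in WT and 0.716 in KO. The decay difference at 90 min was -0.01 (95% confidence interval -0.74 to 0.72). Leaving out single arrays gave -0.10 to 0.28 for the WT change and -0.23 to 0.29 for the KO change. The decay difference then ran from -0.27 to 0.24.

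Between genotypes, the Zfp36l2 estimates were 0.41 at 0 min, 0.40 at 45 min and 0.40 at 90 min, with limma adjusted p of 0.703, 1.00 and 0.907. Single arrays moved these estimates. The 0 min value was 0.16 without KO replicate 3 and 0.68 without KO replicate 1, the 45 min value was 0.24 without KO replicate 3, and the 90 min value was 0.17 without WT replicate 2. None of these passed. The average was 0.40 ± 0.14 (SE), a ratio of 1.32 (95% confidence interval 1.08 to 1.63). It did not pass (limma adjusted p = 0.218), and the estimate ranked 317 from the highest among 10258 genes. The average passed in 1 of 10 alternatives, with the title series as a block (limma adjusted p = 0.0476), and in 0 of 18 fits without single arrays. Those 10 alternatives called 116 to 587 genes in this comparison, against 136 in the main fit. Over 9 arrays the WT mean was 3.47 ± 0.22 (SD, n = 9) and the KO mean 3.87 ± 0.33 (SD, n = 9). In series B alone the average was 0.28 (limma adjusted p = 0.236), and over the 3 pairs of series A it was 0.66, with no test.

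For the genotype averaged over the 3 times, limma called 0 of the 2 tested members, against 1.33% of all genes called in either direction and 0.877% called higher. At an unadjusted p under 0.05 there was 1 of 2, against 11.6% of all genes. At single times limma called 0 of 2 at each of 0, 45 and 90 min, against 0%, 0.0195% and 0.146% of all genes. With an unadjusted p under 0.05 there were 1, 0 and 1, against 7.57%, 3.99% and 5.78% of all genes. At 0 min that share was 777 of 10258 genes. Zfp36l3, a further mouse family gene known from placenta, had a highest group mean of 2.76, under the signal limit.

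**Figure D4:**
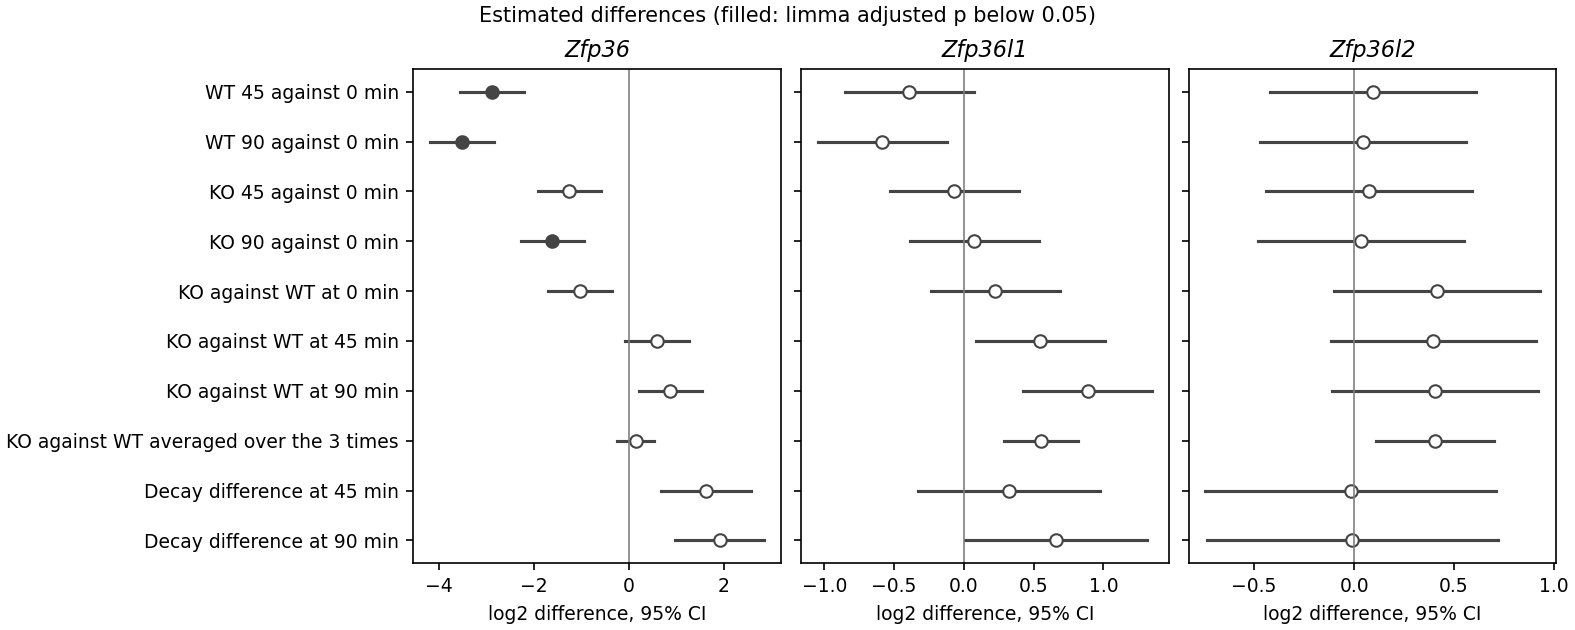
Estimated log2 differences of each member with 95% confidence intervals (limma, 18 arrays), for changes over time within a genotype and for KO against WT. Axis ranges differ between panels. For Zfp36 the intervals for the 90 min losses lie below 0 in both genotypes. For Zfp36l1 and Zfp36l2 the averaged KO minus WT intervals run from 0.29 to 0.82 and from 0.11 to 0.70. Neither passed after adjustment in this fit. Zfp36l2 passed in 1 of 10 alternatives, with the title series as a block (limma adjusted p = 0.0476).

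The partners and regulators of the family were read from lists of genes with known roles in mRNA decay. Of 20 deadenylation genes, 19 were tested. Limma called 0 of them in WT or KO over 90 min, with 2 and 0 at an unadjusted p under 0.05; over all genes 9.43% and 5.36% had such a p. The list's median in WT was -0.17, against -0.02 over all genes. Cnot8, a catalytic deadenylase subunit of CCR4-NOT, was the 1 gene that passed between genotypes, 0.40 ± 0.08 higher in KO averaged over the times (limma adjusted p = 0.0169), where 0.877% of all genes were called higher. Btg1, an adaptor that links CCR4-NOT to poly(A)-binding protein, had a WT change of -0.91 ± 0.28 (limma adjusted p = 0.169).

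All 16 decapping and 5' decay genes were tested, and limma called 0 in WT and 0 in KO over 90 min. At an unadjusted p under 0.05 there were 2 and 3, against 9.43% and 5.36% of all genes. The decapping activator Edc3 had estimates of -0.56 in WT and -0.48 in KO, and Edc4, the scaffold of the decapping complex, had 0.53 in KO (limma adjusted p = 0.615). Edc4 was the only 1 of the 16 with an estimate above 0 in KO, where WT had 5 of 16. The medians of this list were -0.08 in WT and -0.11 in KO, against -0.02 and 0.02 over all genes. Among other proteins that bind 3' untranslated regions, 18 of 21 were tested. Limma called 0 in WT, in KO and between genotypes averaged over the times, with 1, 1 and 3 at an unadjusted p under 0.05. Over all genes 9.43%, 5.36% and 11.6% had such a p. Zc3h12a, which encodes the endoribonuclease Regnase-1, had the largest estimates, -1.64 ± 0.46 in WT (limma adjusted p = 0.114) and -0.79 ± 0.46 in KO (limma adjusted p = 1.00). Zc3h12d, of the same endoribonuclease family, had an averaged difference of 0.54 between genotypes (limma adjusted p = 0.240).

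On the p38 and MK2 axis 20 of 22 genes were tested. Dusp1, the phosphatase that inactivates p38, fell by 3.39 ± 0.67 over 90 min in WT (limma adjusted p = 0.0130). It was the only gene of this list called there, where 1.22% of all genes were called lower. In KO 12.5% of its signal was left (limma adjusted p = 0.0976). Limma called 0 of 20 in KO, against 0.224% of all genes, with 1 at an unadjusted p under 0.05, against 5.36%. The medians of this list were 0.00 in WT and 0.08 in KO, against -0.02 and 0.02 over all genes.

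Of 23 mRNAs reported as TTP targets, limma called 10 lower in WT over 90 min at an adjusted p under 0.05, against 1.22% of all genes. In KO it called 1 of 23, Plk2, against 0.224%. At an unadjusted p under 0.05 there were 17 in WT and 8 in KO, against 9.43% and 5.36% of all genes. The largest WT falls among them were those of Tnf, Plk2, Dusp1 and Cxcl1, with 5.31%, 8.41%, 9.56% and 14.2% of the signal left. The list's median change was -1.11 in WT and -0.18 in KO. Averaged over the times, limma called 6 of the 23 higher in KO at an adjusted p under 0.05, against 0.877% of all genes, and 18 of 23 had an estimate above 0. The largest were Tnf at 2.13, Il10 at 2.08, Ier3 at 1.69 and Cxcl1 at 1.59 on the log2 scale. The decay difference at 90 min passed for 2 of the 23, the cytokine gene Tnf at 3.79 ± 0.26 (limma adjusted p = 3.76e-07) and the chemokine gene Cxcl2 at 2.09 ± 0.33 (limma adjusted p = 0.0375). Over all genes 0.0195% were called in this comparison. The list's median decay difference was 0.71, against 0.04 over all genes. Zfp36, at 1.91 ± 0.45, had an estimate near that of Cxcl2 with a larger error, and it did not pass. Its KO values are those of whatever Zfp36 transcript remains in KO, so it is not directly comparable with Cxcl2. The list was drawn up with results of these arrays known and is not independent evidence of its direction.

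The genes most like each member were ranked by Pearson's r of log2 intensity over the 18 arrays, among 9931 tested genes with established names. The arrays share their groups and title series, so these values are descriptions. For Zfp36 the first 5 were Cebpd (0.909), Il10ra (0.909), Tnfaip3 (0.908), Clec2d (0.905) and Slc25a25 (0.902). The transcription factor gene Cebpd had changes over 90 min of -1.92 in WT and -1.50 in KO. Il10ra, a chain of the interleukin-10 receptor, had -2.21 and -0.77. Tnfaip3, an NF-kB inhibitor, had -3.21 and -2.49. The choice by r over arrays of all times favours genes that are lost over time.

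For Zfp36l1 the first 5 were Ppp2r5b (0.890), Ptk2b (0.885), Inpp4a (0.882), B4galt3 (0.875) and Chst12 (0.875). The WT changes over 90 min of these 5 genes ran from -1.24 for B4galt3, a galactosyltransferase gene, to -0.20 for Ppp2r5b, a phosphatase subunit gene. Their averaged KO minus WT differences ran from 0.31 to 0.76. Choosing genes by r with Zfp36l1 over arrays of both genotypes favours a shared genotype direction, and the Zfp36l1 signal itself lay under the limit. For Zfp36l2 the first 5 were Cdk20 (0.910), Notch1 (0.905), Stat3 (0.889), Tmem50b (0.887) and Trim3 (0.886). Notch1, which encodes a receptor for cell-contact signalling, had an averaged difference of 1.05 between KO and WT, and Stat3, a transcription factor gene of cytokine signalling, one of 0.57. Those of Cdk20, Tmem50b and Trim3 were 0.25, 0.37 and 0.45. The choice by r with Zfp36l2 over arrays of both genotypes likewise favours a shared genotype direction.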

How the data were processed

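The authors normalized the arrays by RMA with Affymetrix Expression Console, of unstated version, per the submitters' processing notes. The deposited intensities are taken as linear from the size of the values (array medians 7.41 to 8.19). Their log2 was taken with no offset; the deposited files hold no log2 values and no detection calls. The platform annotation gave a single symbol for 21039 of 25138 rows, updated through RefSeq (GRCm38.p6). The brightest row per symbol was kept, and genes whose highest group mean reached a log2 intensity of 3.03 (10258 of 19454) were tested.

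The model had 1 mean per group and no block, and it was fitted to all 18 arrays (limma 3.58.1, R 4.3.3). Calls used a Benjamini-Hochberg adjusted p under 0.05 in each comparison. A decay difference subtracts the WT change over time from the KO change, and errors of differences are the model's SE. A half-life is 1 log2 unit divided by the fitted slope. The number of arrays limits the precision. The fitting procedure was tested on simulated data. The members and gene lists were chosen with earlier results of these data known. Named genes were the members, the 5 genes most correlated with each, and from each list up to 4 that passed in each direction or the 2 with the largest change in a comparison; not all of the latter are printed.

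Replicate numbers were taken to pair samples where all 3 pairs of same-numbered arrays had residuals (array minus group mean) correlated above 0.1. This held for the KO loss at 90 min (0.413 to 0.694), the WT loss at 45 min (0.333 to 0.550), both KO changes from or to 45 min, and KO against WT at each time (0.156 or higher). It did not hold for WT at 90 min (lowest -0.287), WT from 45 to 90 min, the decay differences or the averaged genotype difference. In either case the values given come from the fit without a block, unless a block is named. Alternatives were a replicate block, a title series block, series B alone, only the compared groups, other filters, an offset of 8, quantile normalization, median centring, an intensity trend, the mean over rows, and leaving out each array.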

Additional observations from a re-analysis of the deposited data

Results flagged for a closer look

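The sign of KO minus WT for Zfp36 turned between times. All 3 replicate differences were below 0 at 0 min and above 0 at 45 min, a shift of 1.63 on the log2 scale whose test (the decay difference at 45 min) had a limma adjusted p of 1.00. They were above 0 at 90 min as well, a shift of 1.91 with a limma adjusted p of 0.758. At 90 min the KO minus WT difference was 0.87, and 0.38 without KO 90 min replicate 2. Single arrays were not tested as outliers within groups of 3.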

How the results depend on the processing

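The fall of Zfp36 in WT passed under every alternative run, with 90 min estimates of -3.80 to -3.03 and 45 min estimates of -3.01 to -2.57; leaving out single arrays gave -3.78 to -3.37 and -3.15 to -2.73. Its fall in KO at 90 min missed the threshold within series B (-1.23), with only the compared groups (-1.61), without the filter (-1.61, limma adjusted p = 0.0746), with the offset (-1.38, 0.0673), after quantile normalization (-1.62, 0.0505) and after median centring (-1.60, 0.0658). It passed with the replicate block (limma adjusted p = 0.0157) and the title series block (limma adjusted p = 0.0120). Leaving out single arrays gave -2.10 to -1.33, with 3 of 18 passing, so for most arrays the call is lost without them. The KO change of Zfp36 at 45 min and its slope passed in 1 of 18 such fits each (-1.43 to -1.14, and -1.42 to -0.95 per h), and KO minus WT at 0 min also in 1 of 18 (-1.30 to -0.86), besides series B (-1.40). The averaged Zfp36 difference ran from -0.02 to 0.24. The Zfp36 decay difference at 90 min missed the threshold in all, at 1.42 to 2.19 without single arrays. The replicate block changed no member's call; the averaged Zfp36l2 difference had a limma adjusted p of 0.0558 with it, and passed with the title series block (0.40, limma adjusted p = 0.0476). The averaged Zfp36l2 difference ran from 0.32 to 0.49 without single arrays. For Zfp36l1, series B gave a decay difference at 90 min of 1.05 and a 0 min difference of -0.11. The offset gave a decay difference of 0.26, an averaged difference of 0.23 and a WT change at 90 min of -0.23. The averaged Zfp36l1 difference ran from 0.47 to 0.61 without single arrays. The cause was not tested, except that the offset shrinks differences at low signal by construction.

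Counts of called genes moved more. WT at 90 min gave 65 to 1373 genes over the alternatives, against 126, and KO minus WT at 0 min gave 0 to 926, against 0. The averaged KO minus WT gave 116 to 587, against 136. Median centring took the median of all genes for the decay difference at 90 min from 0.04 to 0.15. The stricter filter leaves out Zfp36l2, and the fit of only the compared groups was not run for the averaged difference and the slope difference. Signals under the limit bound what can be said of Zfp36l1.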
